A study of Mus musculus with 6 samples.

Results

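The response of mouse muscle cells to palmitate, the most common saturated fatty acid of diet and blood, was read from 4 of the 6 arrays of a study on the lipid droplet protein perilipin 2. The cells were C2C12 myotubes, multinucleated fibres formed in culture by fusion of a mouse myoblast line. They were grown in medium with 10% fetal calf serum and differentiated for a week in 2% serum. Each culture was transfected with 10 nM siRNA, either a scrambled control or an siRNA against Plin2, the gene of perilipin 2. For 20 h each then received either bovine serum albumin alone (BSA) or 200 µM palmitate loaded onto it at a molar ratio of 2.5. The members are the 2 palmitate arrays and the 2 BSA arrays, taken by their titles and set in 2 pairs, 1 for each siRNA. The oleate arrays, 1 for each siRNA, received the monounsaturated fatty acid at the same dose, and they were used for the spread of the fit and for direct comparison of the fatty acids. All cells were 1 line in culture, and no condition was repeated, so a change is supported only by its recurrence in the other siRNA. Because the second pair carries a knockdown of a droplet coat gene, the pairs are not replicates of 1 state.

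Values are log2 expression on whole-transcript arrays, and a change is the palmitate array minus the BSA array of the same siRNA, so that 1 unit is a doubling. In all, 19938 genes were read, each by 1 probe set. Array medians lay between 5.72 and 5.80, and correlations across genes were 0.995 to 0.997 between arrays of 1 siRNA and 0.989 to 0.993 between siRNAs. Of the myotube markers, the skeletal actin Acta1 lay between 13.63 and 13.67 and the differentiation factor Myog between 11.39 and 12.14 in the 4 arrays. The myosin gene Myh4, also on the marker list, was lower, between 6.40 and 7.83. Of 53 contractile and differentiation genes, 48 had a mean of at least 6. Macrophage, endothelial and most fat cell markers were low. By contrast, 30 of 33 extracellular matrix and fibroblast genes and 19 of 21 myoblast markers had a mean of at least 6. Of 13 macrophage and endothelial genes, 0 reached a mean of 6, and the pan-leukocyte gene Ptprc lay between 3.30 and 3.54. Of 12 adipocyte markers 3 had a mean of at least 6, and the adipocyte hormone Adipoq lay between 3.44 and 3.54. Plin2 was at 9.29 and 10.10 with scrambled siRNA and at 6.95 and 7.45 with Plin2 siRNA, lower in both arrays of its siRNA.

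Long-chain fatty acids enter muscle, are activated to coenzyme A esters, and are then burned in mitochondria, stored as triglyceride in lipid droplets or built into membranes. They also act as ligands of the PPAR nuclear receptors, which switch on genes of fatty acid import and oxidation. Palmitate is known as the more stressful of the common fatty acids in cultured muscle, where it is used to provoke insulin resistance, membrane and endoplasmic reticulum (ER) stress and inflammatory signalling, while oleate is better stored.

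The change that recurred most strongly was in PPAR-responsive genes of lipid handling. Angptl4, a secreted inhibitor of lipoprotein lipase, rose from 8.41 to 10.43 with scrambled siRNA and from 7.70 to 10.06 with Plin2 siRNA. Both palmitate arrays stood far above both BSA arrays. The mean change of 2.19 (SE 0.11, n = 2 pairs) is a 4.56-fold rise, with a 95% interval of 1.95 to 2.42 on the log2 scale and a limma adjusted p of 7.1e-06. Cpt1a, the carnitine palmitoyltransferase that admits long-chain fatty acids to mitochondria, rose from 7.89 to 9.12 and from 8.20 to 9.33. Its mean change over the 2 pairs was 1.18, or 2.26-fold (limma SE 0.08, interval 0.99 to 1.36, adjusted p = 0.00018). Its groups did not overlap either. These were the only probe sets past the threshold of 0.05 among 21789. The share called was 0.00918% on the higher side and 0% on the lower side, while 1134 probe sets had an unadjusted p under 0.05, where chance alone would give 1089. The count of 2 became 119 (36 higher, 83 lower) when the 4 BSA and palmitate arrays were fitted alone, where the spread is borrowed almost wholly from other genes. It was 116 without the scrambled oleate array, 117 without the Plin2 siRNA oleate array and 98 without the Plin2 siRNA palmitate array. With probe sets of no or several gene symbols added to the fit it was 0, and both genes then had an adjusted p of 0.15.

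Plin2 missed the threshold, with the same adjusted p as the myosin gene Myh4 described below. It was higher by 0.81 with scrambled siRNA and by 0.50 in the knockdown, where the remaining message was near 7. The mean change was 0.66 (SE 0.10, interval 0.44 to 0.87, limma adjusted p = 0.16). Because the knockdown changes the level of this gene, its BSA and palmitate values do not separate unless they are compared within an siRNA. The RefSeq sequences just upstream of the starts of Cpt1a and Plin2 are shown because both genes are textbook targets of PPAR and both stood higher in each pair. They are the 250 bases before the start on GRCm38.p6, Cpt1a at chr19:3323051-3323300 on the plus strand and Plin2 at chr4:86670060-86670309 on the minus strand. Capitals mark the nuclear receptor half-site AGGTCA, searched on both strands and printed here as its reverse complement.
Cpt1a: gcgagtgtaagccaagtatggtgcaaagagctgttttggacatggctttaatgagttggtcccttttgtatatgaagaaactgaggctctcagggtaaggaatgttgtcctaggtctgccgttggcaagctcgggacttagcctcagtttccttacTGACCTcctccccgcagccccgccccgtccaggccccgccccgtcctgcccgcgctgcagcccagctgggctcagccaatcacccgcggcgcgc
Plin2: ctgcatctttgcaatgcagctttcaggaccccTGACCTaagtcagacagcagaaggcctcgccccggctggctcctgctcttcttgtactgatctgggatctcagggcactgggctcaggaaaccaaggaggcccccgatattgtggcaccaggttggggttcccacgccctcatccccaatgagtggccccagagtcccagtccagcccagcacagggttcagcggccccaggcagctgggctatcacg
Each window held 1 half-site, beginning at -94 in Cpt1a and at -218 in Plin2, counted from the start. Of 32851 RefSeq windows of this length, 14% held the same letters. Neither window held 2 half-sites 1 base apart in the same direction with at most 1 mismatch in each, the form PPAR binds, which 1.98% of all windows held. These matches describe letters only. The set of sequences used held none for Angptl4, so its window is not shown.

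**Figure D1:**
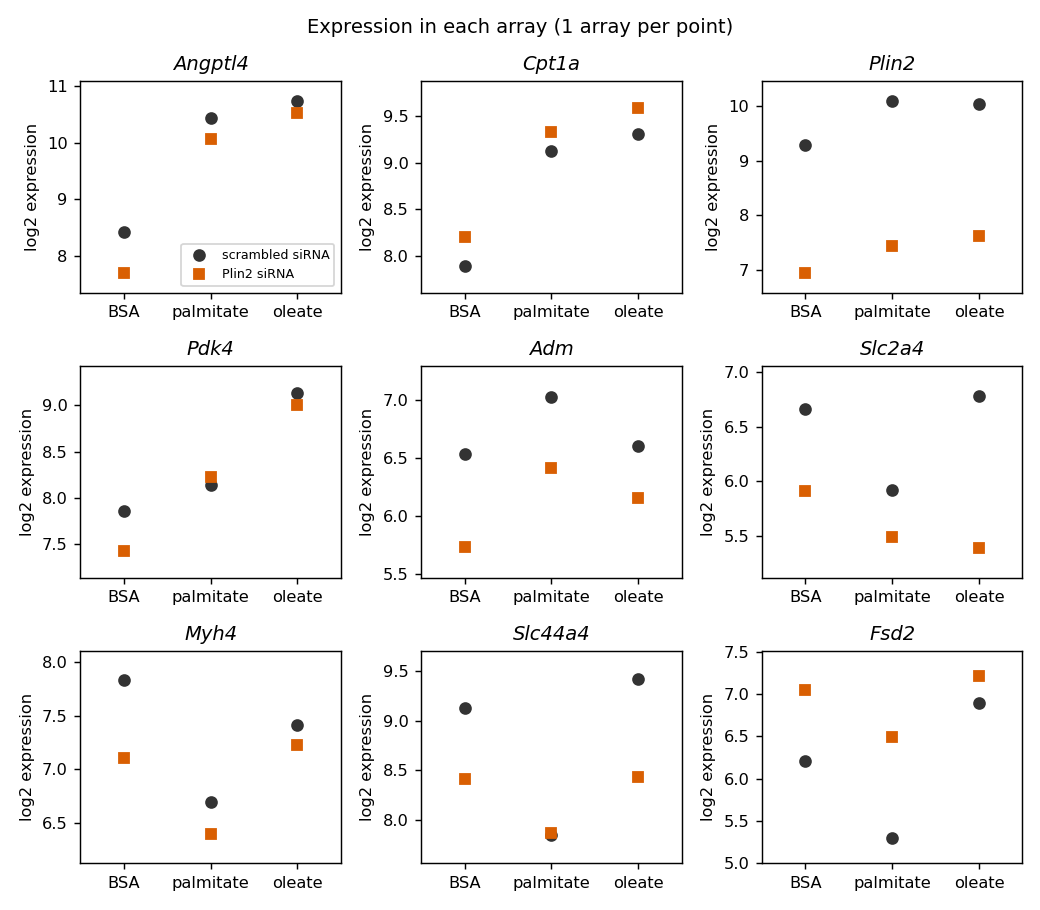
Log2 expression of 9 genes (1 panel each, axes to the panel's own range) in each of the 6 arrays, black circles for scrambled siRNA and orange squares for Plin2 siRNA, 1 array per point. Angptl4 and Cpt1a are higher in palmitate than in BSA with both siRNAs, at 10.43 and 10.06 against 8.41 and 7.70 for Angptl4, and Myh4 is lower in palmitate, at 6.70 and 6.40 against 7.83 and 7.11.

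The oleate arrays put a scale on these changes. Against the same BSA arrays, oleate changed Angptl4 by 2.57, Cpt1a by 1.40 and Plin2 by 0.71. The difference of palmitate from oleate was -0.38 for Angptl4 (interval -0.62 to -0.15, limma adjusted p = 0.29), -0.22 for Cpt1a (interval -0.40 to -0.04, adjusted p = 0.46) and -0.06 for Plin2 (interval -0.27 to 0.16, adjusted p = 0.92). None of these differences passed. Pdk4, the kinase that shuts pyruvate dehydrogenase when fat is burned, differed between the fatty acids. It went from 7.86 to 8.14 and from 7.42 to 8.23 with palmitate, a mean of 0.54 that did not pass, and it stood 0.89 below oleate (SE 0.12, limma adjusted p = 0.011). Across the array, 57 of 21789 probe sets, 0.262%, differed between palmitate and oleate, 31 higher and 26 lower. That count was 0 without the intensity trend and 0 with all probe sets in the fit. When 1 array was left out it was 30 without scrambled palmitate, 112 without scrambled oleate, 440 without Plin2 siRNA palmitate and 538 without Plin2 siRNA oleate. Each palmitate against oleate call given here therefore depends on the trend and on the probe sets in the fit.

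How far the palmitate response recurred was read from the scrambled and Plin2 siRNA pairs, which share no array. Over all 19938 genes the changes in the 2 pairs were uncorrelated (Pearson r 0.00, Spearman rho -0.01), and 49.7% had the same sign. Over 9476 genes with a mean of at least 6 in the 4 arrays, r was 0.14 and 52.7% agreed in sign, and without Angptl4 and Cpt1a r was 0.12. Over 4824 genes with a mean of at least 8 it was 0.28, and over 1116 genes with a mean of at least 10 it was 0.35, with 58.8% of the same sign. These are correlations across genes, which are not independent, and level is shared with measurement precision. The scrambled pair also moved more. Among genes with a mean of at least 6, the SD of the change was 0.195 with scrambled siRNA and 0.136 with Plin2 siRNA. Of these genes 196 differed by at least 0.5 in the scrambled pair, 48 higher and 148 lower, and 39 in the Plin2 siRNA pair, 24 higher and 15 lower. The scrambled pair carried a shift with signal level, its median change being -0.04 for genes with a mean of at least 6 and 0.06 for genes below 6, while the Plin2 siRNA pair had 0.01 and -0.05. Higher medians of weakly expressed lists and lower medians of strongly expressed lists in the scrambled pair move with this shift, and its part in them was not tested.

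**Figure D2:**
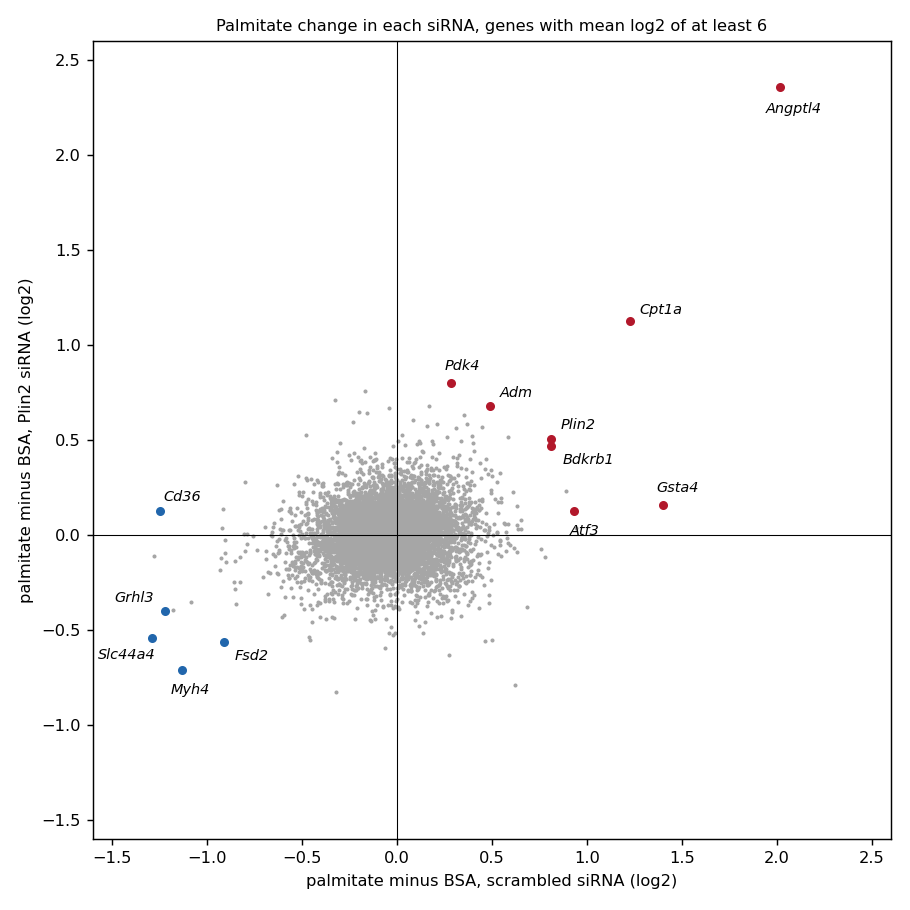
Each grey point is 1 of 9476 genes with a mean log2 expression of at least 6, plotted by its palmitate minus BSA difference with scrambled siRNA (x axis) and with Plin2 siRNA (y axis), both in log2 units. Named genes are red where higher and blue where lower with scrambled siRNA. Angptl4 (2.02 and 2.36) and Cpt1a (1.23 and 1.13) stand apart on the diagonal, while Gsta4 (1.40 and 0.16) and Cd36 (-1.25 and 0.12) lie far from the diagonal.

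A difference of at least 0.5 in the same direction in both pairs was found for 18 genes, and for 10 when the lowest 33.3% of genes by mean were left out. There were 10 higher, 0.0502% of genes, and 8 lower, 0.0401%. Differences of that size in opposite directions were about as frequent, with 10 genes higher with scrambled and lower with Plin2 siRNA and 4 the reverse. Among genes with a mean of at least 6 the opposite counts were 2 and 0. Genes simply higher in both pairs made up 23.2% of all genes and genes lower in both 26.5%. For genes with a mean of at least 6 these shares were 22.2% and 30.4%, and they are the figures against which the lists below are read. Of the 18 genes, 7 had a mean of at least 6. These were Angptl4, Cpt1a, Plin2 and the noncoding host RNA Snhg15 on the higher side, and Myh4, Slc44a4 and Fsd2 on the lower side. The other 11 lay at low signal, among them Cd28, a T cell costimulatory receptor that went from 5.12 to 4.43 and from 6.33 to 5.30 and the olfactory receptor genes Olfr518 and Olfr1049. Olfr1049 was at 2.13 and 2.20 in BSA and 3.04 and 2.75 in palmitate, near the bottom of the scale.

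The 12 genes highest by the smaller of their 2 pair changes held, after Angptl4, Cpt1a, Snhg15 and Plin2, several signalling genes. Adm, the precursor of the vasodilator adrenomedullin, went from 6.53 to 7.02 and from 5.73 to 6.41. Bdkrb1, the inducible bradykinin receptor, went from 7.53 to 8.34 and from 6.42 to 6.89. For both genes palmitate was higher within each siRNA, but the ranges of the BSA and palmitate arrays overlapped because the siRNAs differ in level. Fgf7, a growth factor made by mesenchymal cells, went from 6.37 to 6.77 and from 6.49 to 6.98, and Frk, a Src-family tyrosine kinase, from 6.19 to 6.66 and from 6.22 to 6.62. In these 2 genes both palmitate arrays lay above both BSA arrays. Slc43a3, a membrane transporter of purine bases, went from 6.79 to 7.18 and from 6.78 to 7.18. The remaining genes were Gnpda2 (mean 0.46), the protease gene Prss46 (0.51) and the RNA 5031425E22Rik (0.42). Leaving aside Angptl4, Cpt1a and Plin2, limma adjusted p-values of the set were 0.40 to 0.84, so none of the rest passed.

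The 12 lowest genes began with muscle. Myh4, the gene of the fast IIb myosin heavy chain, went from 7.83 to 6.70 with scrambled siRNA and from 7.11 to 6.40 with Plin2 siRNA. Both palmitate arrays lay below both BSA arrays. The mean change was -0.92 (SE 0.13, interval -1.22 to -0.63, limma adjusted p = 0.16). Leaving out 1 array moved the adjusted p to 1 without scrambled BSA (change -0.68) and 0.384 without scrambled palmitate, but to 0.0112 without Plin2 siRNA BSA, 0.0241 without Plin2 siRNA palmitate and 1.49e-09 and 1.84e-09 without either oleate array. Myh4 was also 0.77 below oleate (SE 0.13, limma adjusted p = 0.048). The 250 bases before its start are shown because Myh4 had the lowest mean change of the muscle lists. They lie at chr11:67237562-67237811 on the plus strand of GRCm38.p6, with the TATA-box letters TATAAA in capitals on either strand.
Myh4: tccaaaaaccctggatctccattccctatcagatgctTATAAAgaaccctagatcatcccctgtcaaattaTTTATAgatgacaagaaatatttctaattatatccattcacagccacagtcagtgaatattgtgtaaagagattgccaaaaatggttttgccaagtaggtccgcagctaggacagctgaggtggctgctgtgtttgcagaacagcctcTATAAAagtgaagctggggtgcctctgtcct
The window held 3 matches, beginning at -213, -179 and -31, of which the second is on the opposite strand, and 12.4% of all windows held at least 1.

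Slc44a4, a choline and thiamine pyrophosphate transporter, went from 9.13 to 7.84 and from 8.41 to 7.87, and its palmitate arrays were the lowest of the 6. Its difference from oleate was -1.07 (SE 0.18, limma adjusted p = 0.042). Fsd2, a protein of the muscle sarcoplasmic reticulum, went from 6.21 to 5.30 and from 7.05 to 6.49, and differed from oleate by -1.17 (SE 0.17, limma adjusted p = 0.026). B4galt5, the enzyme that makes lactosylceramide, went from 8.75 to 8.29 and from 8.82 to 8.28 with palmitate and stood at 9.58 and 9.28 with oleate. The 3 conditions were ordered alike in both siRNAs, and the difference between fatty acids was -1.15 (SE 0.10, limma adjusted p = 0.00096). Pcx, the mitochondrial enzyme that carboxylates pyruvate to oxaloacetate, went from 7.87 to 7.27 and from 7.67 to 7.25, with no overlap of the groups. E2f2, a cell cycle transcription factor, went from 8.20 to 7.60 and from 7.55 to 7.12, and Foxo6, a forkhead factor, from 6.96 to 6.50 and from 7.09 to 6.54. Mtmr12 (mean -0.42), Diaph1 (-0.42), Grhl3 (-0.81), Hephl1 (-0.79) and the ribosomal RNA gene n-R5s136 (-0.45) completed the set. Against BSA none of the 12 passed, with limma adjusted p-values of 0.16 to 0.87.

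In the lists that follow, a count of members past the threshold is 0 unless given. For part of the lists the members with an unadjusted p under 0.05 in the limma fit are also given. Of all genes, 2.17% had such a p on the higher side and 3.03% on the lower side. Where this second count is not stated, it is not necessarily 0. Of 30 PPAR-responsive genes measured, Angptl4 and Cpt1a passed, 10 had an unadjusted p under 0.05 on the higher side and 1 on the lower, and the median change was 0.05 (0.05 scrambled, 0.13 Plin2 siRNA) against -0.01 over all genes. The thioesterase Acot2 went from 8.25 to 8.51 and from 8.16 to 8.68. The carnitine carrier Slc25a20 went from 8.90 to 9.06 and from 9.41 to 9.70. Ucp3, the muscle uncoupling protein, went from 5.17 to 5.26 and from 4.63 to 5.46, so that most of its change lay in the Plin2 siRNA pair. Not every target followed. In both pairs 12 of the 30 were higher and 5 lower, and 13 had opposite signs. The lowest mean change was -0.56, for the transporter Cd36, whose pairs had opposite signs as given below. Vldlr, a lipoprotein receptor, stood at -0.23 and the hormone Fgf21 at -0.15. Lpl, the lipase that Angptl4 inhibits, went from 6.09 to 5.90 and from 7.23 to 6.89.

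Most enzymes downstream of Cpt1a had small values of either sign. In 23 genes of mitochondrial fatty acid oxidation the median was -0.01 (-0.05 and 0.07), 7 were higher and 6 lower in both pairs, and Cpt1a was the one past the threshold. The trifunctional protein subunit Hadha went from 10.62 to 10.47 and from 10.68 to 10.60, and Cpt2 from 8.29 to 8.07 and from 8.54 to 8.48. Etfb, which passes electrons from the dehydrogenases to the respiratory chain, went from 9.45 to 9.56 and from 9.45 to 9.76. Peroxisomal oxidation, with 17 genes, had a median of 0.01 and 0 members with an unadjusted p under 0.05. Among 31 genes of the droplet coat and triglyceride turnover, 5 were higher and 11 lower in both pairs, with a median of -0.03. Besides Plin2, Gpat3, which starts triglyceride synthesis, was higher in both, from 7.29 to 7.78 and from 6.24 to 6.47. Other coat genes lay near their BSA levels, with Plin3 at -0.03 (SE 0.08) and Plin5 at -0.03 (SE 0.14). The acyltransferases Dgat1 and Dgat2, which make triglyceride, stood at -0.10 (SE 0.09) and -0.25 (SE 0.13). Lpin3, a phosphatidate phosphatase, differed from oleate by 0.57 (SE 0.09, limma adjusted p = 0.036). Of 20 genes of fatty acid uptake and activation the transporter Cd36 had the largest difference between pairs, from 6.07 to 4.82 with scrambled siRNA and from 7.89 to 8.01 with Plin2 siRNA, and the list median was -0.06.

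Genes of the respiratory chain and the tricarboxylic acid cycle leaned lower, more so with scrambled siRNA. In oxidative phosphorylation 35 of 54 genes were lower and 1 higher in both pairs, 9 had an unadjusted p under 0.05 on the lower side and 0 on the higher, and the median was -0.11 (-0.18 and -0.04). All 54 had a mean of at least 6, where 30.4% of genes were lower in both. Cox7a1, the heart and muscle form of a cytochrome oxidase subunit, had the lowest value, from 8.15 to 7.47 and from 8.64 to 8.33. Sdhd of complex II went from 10.38 to 10.20 and from 10.62 to 10.45, and Uqcrq of complex III from 9.37 to 9.17 and from 9.67 to 9.51. In the cycle and pyruvate entry 18 of 29 were lower and 1 higher in both, with a median of -0.11 (-0.20 and -0.04), and 8 had an unadjusted p under 0.05 on the lower side. Citrate synthase (Cs) went from 10.86 to 10.56 and from 10.63 to 10.50, and the oxoglutarate dehydrogenase Ogdh from 10.58 to 10.28 and from 10.38 to 10.23. Pdk4 was the one member higher in both pairs. Among 26 regulators of mitochondrial biogenesis the coactivator Ppargc1a stood at -0.25 and -0.19, and Prkag3, a muscle subunit of the AMP-activated kinase, from 9.29 to 8.75 and from 9.01 to 8.88. The median of that list was -0.07.

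Sterol and desaturase genes separated palmitate from oleate. Of 21 genes of cholesterol synthesis, 14 were higher and 0 lower in both pairs with palmitate. The median change was 0.14 (0.03 scrambled, 0.24 Plin2 siRNA), 4 genes had an unadjusted p under 0.05 on the higher side, and 0 passed. With oleate, against the same BSA arrays, the median was -0.50. Compared directly, 12 of the 21 were higher with palmitate than with oleate past the threshold and 0 were lower, next to 0.262% of all probe sets in either direction. Nsdhl, a sterol dehydrogenase, was at 10.45 and 10.07 in BSA and 10.58 and 10.51 in palmitate, and differed from oleate by 1.15 (SE 0.10, limma adjusted p = 0.00096). Insig1, the sterol-regulated ER protein that restrains SREBP, went from 11.03 to 11.13 and from 10.46 to 10.94, and differed from oleate by 1.05 (SE 0.10, limma adjusted p = 0.0013). Hsd17b7 (0.85), Tm7sf2 (0.95), Lss (0.88), Sqle (0.53) and Hmgcs1 (0.52) were further genes of the pathway above oleate. The palmitate values against BSA were small beside these, between -0.10 and 0.33 over the list.

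In the 24 genes of fatty acid synthesis, elongation and desaturation the palmitate median was 0.03 and 3 genes differed from oleate, all higher. Fads2, the delta-6 desaturase that starts polyunsaturated fatty acid synthesis, went from 9.92 to 10.26 and from 8.93 to 9.42 with palmitate, a mean of 0.41 (SE 0.09) that did not pass, and stood at -0.81 with oleate. The difference between fatty acids was 1.23 (SE 0.09, limma adjusted p = 0.00069). The stearoyl-CoA desaturases Scd1 and Scd2, which turn saturated acyl chains into monounsaturated ones, were 0.50 and 0.74 above oleate and stood at 0.13 (SE 0.07) and 0.06 (SE 0.07) against BSA. Fatty acid synthase (Fasn) went the other way, from 9.02 to 8.68 and from 8.66 to 8.41. Rnf145, a sterol-responsive ubiquitin ligase of the ER, went from 7.85 to 7.63 and from 7.82 to 7.38 with palmitate and stood 0.80 above BSA with oleate. It differed between fatty acids by -1.13 (SE 0.10, limma adjusted p = 0.00096).

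**Figure D3:**
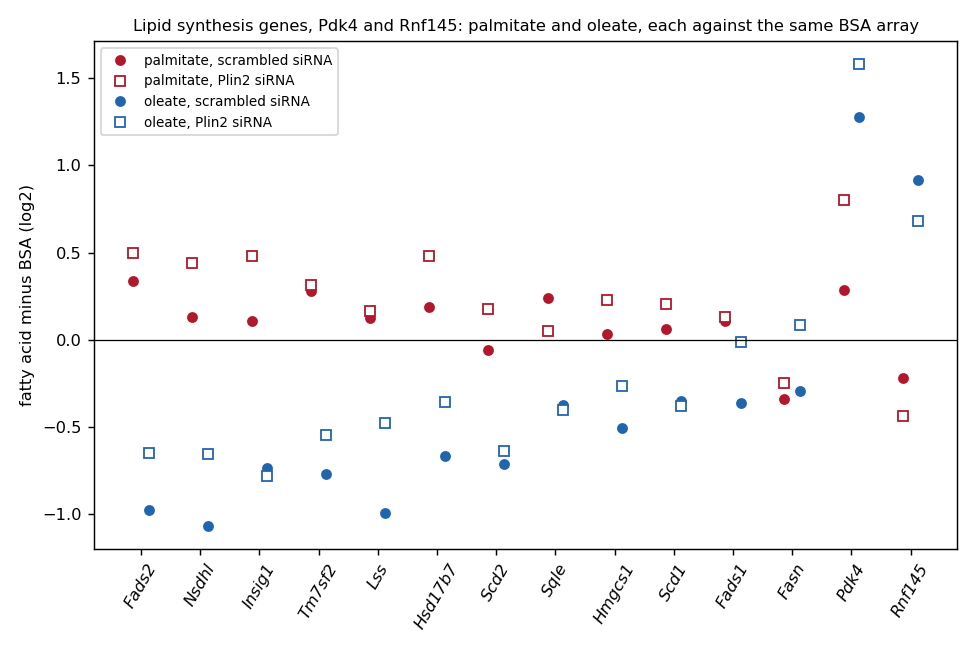
Fatty acid minus BSA difference in log2 units for 12 genes of sterol and fatty acid synthesis, Pdk4 and Rnf145 (x axis), in red for palmitate and blue for oleate, filled circles for scrambled siRNA and open squares for Plin2 siRNA, both fatty acids against the same BSA array of the siRNA. Fads2 and Nsdhl stand above 0 with palmitate and below it with oleate, and Pdk4 and Rnf145 stand higher with oleate than with palmitate.

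Palmitate is the acyl chain from which sphingolipids are begun, and it also feeds diacylglycerol. Of 28 sphingolipid genes 7 were higher and 9 lower in both pairs, with a median of 0.00. The subunits of serine palmitoyltransferase, which joins palmitoyl-CoA to serine, lay near their BSA levels, with Sptlc1 at -0.02 (SE 0.09) and Sptlc2 at 0.13 (SE 0.09). Smpd1, the acid sphingomyelinase, went from 9.25 to 9.02 and from 9.11 to 8.83, and the ceramide synthase Cers6 from 10.06 to 9.77 and from 9.72 to 9.59. Of 22 diacylglycerol kinases and protein kinase C genes 9 were lower and 1 higher in both, with 0 at an unadjusted p under 0.05 and a median of -0.07. Prkcd stood at -0.02 (SE 0.10) and Prkcq lay between 3.88 and 4.01. In 29 phospholipid genes the median was -0.02. Pla2g4a, the phospholipase that frees arachidonate, went from 6.18 to 6.81 and from 6.39 to 6.54, and the remodelling enzyme Lpcat3 stood at 0.03 (SE 0.09).

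ER chaperones leaned slightly higher in both pairs. Of 28 genes 19 were higher and 3 lower in both, against 22.2% and 30.4% of genes with a mean of at least 6, and the median was 0.08 (0.10 and 0.09). The chaperone Hspa5, known as BiP, went from 12.53 to 12.63 and from 12.36 to 12.45. The largest values were Hyou1, from 9.98 to 10.36 and from 9.94 to 10.14, and Dnajb9, from 8.79 to 9.07 and from 8.51 to 8.70. The targets of ATF4 and CHOP leaned lower. Of 35 genes 5 were higher and 16 lower in both, with a median of -0.05 (-0.09 scrambled, -0.03 Plin2 siRNA). In the limma fit 1 had an unadjusted p under 0.05 on the higher side and 3 on the lower. With oleate, against the same BSA arrays, the median was -0.10. Ddit3, the gene of CHOP, went from 6.46 to 6.51 and from 6.41 to 6.43, Trib3 from 7.61 to 7.52 and from 6.79 to 6.62, and Asns from 11.89 to 11.70 and from 11.37 to 11.39. Atf3 was higher in 1 pair, from 6.68 to 7.61 with scrambled siRNA, and went from 5.32 to 5.44 with Plin2 siRNA. Gpt2, a mitochondrial transaminase, was lower in both, from 11.05 to 10.60 and from 11.31 to 11.12.

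Inflammatory genes had unlike values in the pairs. The median of 38 NF-kB and inflammatory genes was 0.16 with scrambled siRNA and -0.03 with Plin2 siRNA, and 5 had an unadjusted p under 0.05 on the higher side and 1 on the lower. Il6 was at low signal, from 4.76 to 4.95 and from 4.88 to 5.10. Tnf was too, from 4.70 to 4.52 and from 4.75 to 4.53. The chemokine Cxcl10 was higher in both, from 5.94 to 6.46 and from 4.70 to 5.14. Ptgs2, the inducible cyclooxygenase, went from 9.31 to 9.67 and from 8.55 to 8.34, and the chemokine Cxcl1 from 7.92 to 8.36 and from 8.40 to 8.30. Ccl7 differed from oleate by -0.75 (SE 0.13, limma adjusted p = 0.046), with palmitate at -0.13 and oleate at 0.63 against BSA. Interferon-stimulated genes had a median of 0.06 over 33 genes, of which 10 had a mean of at least 6. The median was 0.00 with scrambled and -0.02 with Plin2 siRNA. In both pairs 6 were higher and 9 lower, and 18 had opposite signs. Ifit1 was higher in both, from 5.78 to 6.29 and from 3.34 to 3.73.

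Oxidative stress genes of the NRF2 pathway had 17 of 31 members higher and 4 lower in both pairs, with a median of 0.12 (0.14 and 0.08). Of these genes 7 had an unadjusted p under 0.05 on the higher side and 0 on the lower. Hmox1, which degrades heme, went from 9.44 to 9.68 and from 9.32 to 9.47. The ferritin light chain Ftl1 went from 10.45 to 10.73 and from 10.49 to 10.60, and transketolase (Tkt) from 6.39 to 6.70 and from 6.32 to 6.59. The highest means of the list came from the scrambled pair. The glutathione transferase Gsta4 went from 7.59 to 8.99 and from 8.16 to 8.32, and the quinone reductase Nqo1 from 4.97 to 5.94 and from 4.95 to 4.95. Among 21 p53 targets the median was 0.06. Gadd45g, a growth arrest gene, went from 9.47 to 9.90 and from 9.59 to 9.72 and differed from oleate by 0.63 (SE 0.10, limma adjusted p = 0.03). Pmaip1, a pro-apoptotic BH3 protein, went from 8.62 to 8.26 and from 7.83 to 7.57.

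Cell cycle and replication genes stood higher, mostly with scrambled siRNA. Of 36 genes 19 were higher and 3 lower in both pairs, 7 had an unadjusted p under 0.05 on the higher side, and the median was 0.15 (0.29 and 0.05). The mitotic kinase Bub1 went from 5.49 to 6.36 and from 5.25 to 5.57. Thymidylate synthase (Tyms) went from 6.20 to 6.57 and from 6.01 to 6.36, and the helicase subunit Mcm5 from 6.54 to 6.92 and from 6.36 to 6.63. Ccnd3, the D cyclin of differentiating muscle, was lower in both, from 9.24 to 8.81 and from 9.91 to 9.65. The proliferation marker Mki67 went from 6.13 to 6.09 and from 5.87 to 6.06. Of the 36 genes 31 had a mean of at least 6, a range in which the scrambled median over all genes was -0.04. Undifferentiated myoblast markers had a median of -0.06 over 21 genes, with Pax7 at -0.04 (SE 0.10) and Myf5 going from 7.76 to 7.25 and from 8.34 to 8.18. Fewer myotube nuclei and less message per nucleus cannot be told apart in such bulk RNA.

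The muscle program leaned lower with palmitate. Of 10 myosin heavy chain genes 7 were lower and 1 higher in both pairs, with a median of -0.36 with scrambled and -0.06 with Plin2 siRNA. Myh1, the fast IIx chain, went from 11.50 to 10.96 and from 11.29 to 11.22. Myh8, the perinatal chain, went from 10.12 to 9.57 and from 9.49 to 9.43, and Myh7, the slow chain, from 10.59 to 10.16 and from 10.37 to 10.35. Apart from Myh4, these differences lay almost wholly in the scrambled pair. In 53 contractile and differentiation genes 30 were lower and 3 higher in both, 17 had an unadjusted p under 0.05 on the lower side and 0 on the higher, and the median was -0.12 (-0.20 and -0.03). The most abundant gene, Acta1, stood at -0.01 (SE 0.06). Ldb3, a Z-disc protein, went from 9.17 to 8.74 and from 8.91 to 8.55, and Myoz1, a Z-disc protein of fast fibres, from 6.25 to 5.84 and from 6.32 to 5.97. Muscle AMP deaminase (Ampd1) went from 6.37 to 5.84 and from 5.84 to 5.47. These 3 were lower by at least 0.35 in each pair, and Ckm, the creatine kinase, went from 11.90 to 11.56 and from 11.62 to 11.48.

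Calcium handling genes also leaned lower. Of 26 genes 19 were lower and 2 higher in both pairs, 8 had an unadjusted p under 0.05 on the lower side, and the median was -0.19 (-0.34 and -0.07). Atp2a1, the calcium pump of fast fibres, went from 12.36 to 11.79 and from 12.47 to 12.24. Ryr1, the calcium release channel, went from 10.04 to 9.57 and from 9.78 to 9.64, and Stim1, the store sensor, from 8.32 to 7.83 and from 8.17 to 7.98. The buffer protein Casq1 went from 11.15 to 10.49 with scrambled siRNA and from 8.42 to 8.41 in the knockdown. Against the same BSA arrays the oleate median of this list was 0.00, whereas oleate medians of the contractile genes and myosin heavy chains were -0.09 and -0.13, also below 0. Atp2a1 differed from oleate by -0.46 (SE 0.08, limma adjusted p = 0.061), which did not pass, and 0 of the 26 genes did.

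**Figure D4:**
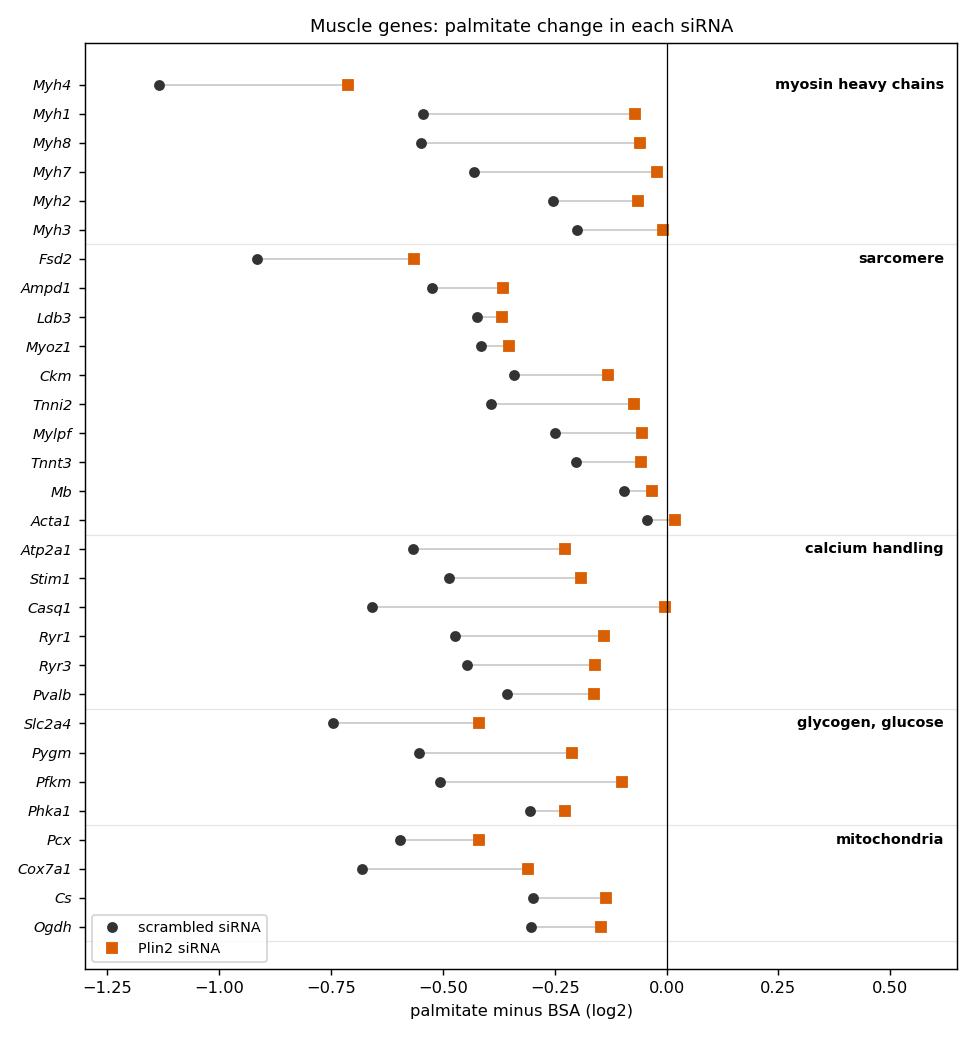
Palmitate minus BSA difference in log2 units (x axis) of 30 muscle and metabolic genes (y axis, in 5 groups), black circles for scrambled siRNA and orange squares for Plin2 siRNA, 1 pair of arrays per point. Myh4 and Fsd2 are at or below -0.56 in both pairs, while Myh1 and Casq1 are low with scrambled siRNA and near 0 with Plin2 siRNA.

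Glucose handling genes gave mixed values. Slc2a4, the insulin-responsive glucose transporter GLUT4, went from 6.66 to 5.92 and from 5.91 to 5.49, a mean of -0.58 (SE 0.19) that did not pass. Slc2a1, the basal transporter GLUT1, went from 10.65 to 10.54 and from 9.35 to 9.03. The 31 genes of insulin signalling had a median of -0.04, with 15 lower and 5 higher in both pairs and 3 with an unadjusted p under 0.05, all on the lower side. The receptor Insr stood at 0.06 (SE 0.09), Irs1 at -0.08 (SE 0.09) and Akt2, the muscle kinase of the pathway, at -0.21 (SE 0.08). In 29 genes of glycolysis and glycogen 18 were lower and 7 higher in both, against 30.4% and 22.2% of genes with a mean of at least 6, with a median of -0.08. Glycogen phosphorylase (Pygm) went from 11.06 to 10.51 and from 11.02 to 10.81, and muscle phosphofructokinase (Pfkm) from 12.17 to 11.66 and from 12.13 to 12.03, whereas the liver form Pfkl went from 8.52 to 8.70 and from 7.80 to 8.21. Hypoxia-inducible genes had a median of -0.07 over 23 genes. Adm was higher, while Car12 stood at -0.35 (SE 0.14).

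Degradation pathways had small values. Among 32 lysosome and autophagy genes 8 were higher and 8 lower in both pairs, 0 had an unadjusted p under 0.05, and the median was -0.02 with a range of -0.22 to 0.18. Sqstm1, the autophagy receptor p62, went from 11.68 to 11.81 and from 11.57 to 11.66. The atrophy ubiquitin ligases Fbxo32 and Trim63 stood at 0.13 (SE 0.08) and -0.01 (SE 0.10), and Capn1, a calcium-activated protease, went from 8.66 to 8.24 and from 8.59 to 8.39. Of 27 secreted factors, Angptl4 aside, Igf1 was the highest after Adm, from 7.35 to 7.66 and from 7.06 to 7.63, and Igf2 was lower, from 11.04 to 10.76 and from 11.36 to 11.19. Matrix and fibroblast markers, 33 genes, had 10 higher and 2 lower in both pairs and a median of 0.05. The collagenase Mmp2 went from 9.71 to 10.12 and from 9.64 to 9.82. Tenascin C (Tnc) went from 10.20 to 10.58 and from 8.75 to 8.99 and differed from oleate by 0.60 (SE 0.10, limma adjusted p = 0.042).

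Over all 37 lists, the median lay below 0 in 22 with scrambled siRNA and in 20 with Plin2 siRNA, and it was further from 0 with scrambled siRNA in 26. The lists with the largest scrambled medians, myosin heavy chains at -0.36 and calcium handling at -0.34, stood at -0.06 and -0.07 with Plin2 siRNA. Cholesterol synthesis was the other way round, at 0.03 and 0.24.

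**Figure D5:**
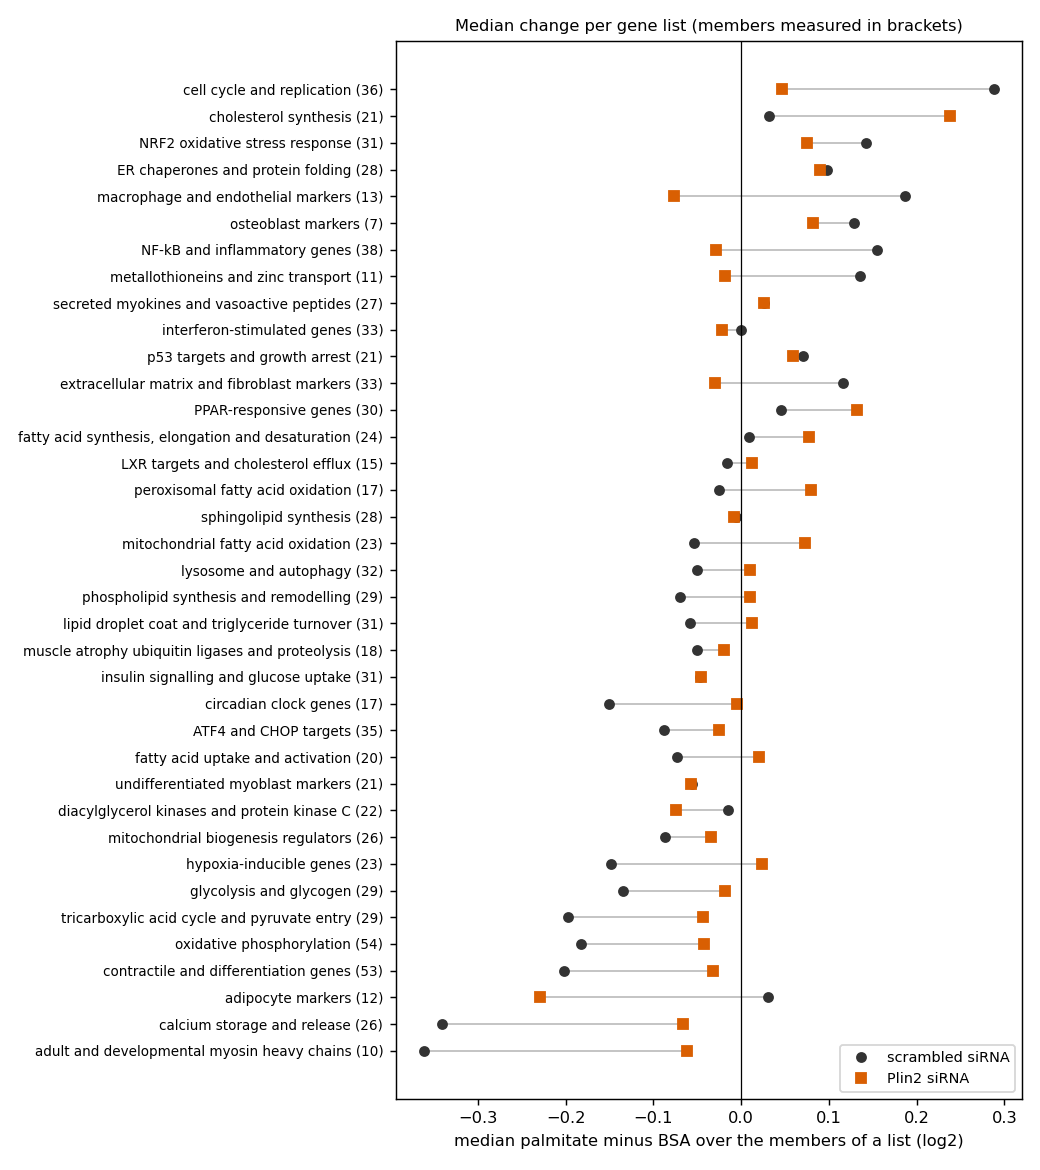
Median palmitate minus BSA difference in log2 units (x axis) over the measured members of each of 37 gene lists (y axis, number of members in brackets), black circles for scrambled siRNA and orange squares for Plin2 siRNA, ordered by the median of the mean change. Myosin heavy chains are lowest with scrambled siRNA at -0.36 and cell cycle genes highest at 0.29, while with Plin2 siRNA these lists are at -0.06 and 0.05.

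Some genes differed by palmitate in 1 siRNA and by under 0.1 in the other. With 1 array per condition this has no test. With scrambled siRNA alone, the RNA export adaptor Alyref2 went from 6.08 to 5.16, the chloride channel protein Clic3 from 7.87 to 6.96, the receptor Fgfrl1 from 9.21 to 8.40 and the transcription factor Etv1 from 6.85 to 6.06. Myot, a Z-disc protein, went from 5.95 to 5.16 with scrambled siRNA and was at 8.02 in both arrays with Plin2 siRNA, so that its level differed between siRNAs by more than the palmitate change. On the higher side were Gpr137b, a lysosomal membrane protein, from 5.91 to 6.85, the chemokine Cxcl14 from 6.24 to 6.90 and the calcification inhibitor Mgp from 9.62 to 10.24. With Plin2 siRNA alone, Txnip, the thioredoxin-binding protein that limits glucose uptake, went from 9.62 to 10.09 and stood at 8.84 and 8.89 with scrambled siRNA. The interferon-induced membrane protein Ifitm1 went from 9.32 to 8.81, the phosphatase Dusp8 from 7.38 to 6.90 and the CREB coactivator Crtc3 from 7.01 to 6.49, each within 0.1 of its BSA level with scrambled siRNA.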

How the data were processed

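The deposited values are log2 expression values of 35556 probe sets on 6 Affymetrix whole-transcript arrays. The authors made them by RMA, which adjusts background and puts the arrays on 1 scale, per the submitters' processing notes. The RMA version was not given in the sources used here. The log base was read from RMA and the range of the values. Per the labels' protocols, 100 ng of RNA was labelled, with an integrity number over 8.

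The platform annotation tied 21789 probe sets to 1 gene symbol, 1621 to several and did not list 12146. A gene with several probe sets (999 of 19938) was read by the one with the highest mean. Palmitate against BSA and against oleate were tested on all 6 arrays with limma 3.58.1 (R 4.3.3), with siRNA and treatment as terms and an intensity trend in eBayes (2 residual and 9.21 prior degrees of freedom), and adjusted by Benjamini-Hochberg over 21789 probe sets at 0.05. Every adjusted p comes from this fit unless an alternative fit is named with it. Intervals are 95%. The labels do not say whether cultures were separate, so part of the spread may be technical. With 1 array per condition, the residual spread is how far the treatment changes differ between the 2 siRNAs, moderated by other genes. The p-values therefore mix array noise with any response that differs by siRNA. In simulated data at this size, 0 of 200 genes changed by 0.5 were recovered, 100 of 200 at 1 and 184 of 200 at 2. The simulation shuffled the residual spreads among genes, so it lacked the link of spread to signal level that the trend models. Recovery in the real data may therefore differ.

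The members and the 37 gene lists were chosen with earlier results of these data known. Named genes were Plin2, those past the threshold, the 12 in each direction with the largest smaller-of-2 pair change at a mean of at least 6, those changed by at least 0.5 in both pairs, key members of each list with up to 4 more in each direction, and up to 8 in each direction changed in 1 siRNA only. Of those the text gives a part. Alternatives were the arrays and probe sets in the fit, the trend, centring, quantile normalization, the mean of a gene's probe sets, and leaving out each array.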

Additional observations from a re-analysis of the deposited data

Results flagged for a closer look

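In 13 gene lists the median palmitate change had opposite signs in the 2 siRNAs. With 1 array per condition the difference was not tested. As scrambled minus Plin2 siRNA, the difference was -0.070 for droplet coat and triglyceride turnover, -0.093 for fatty acid uptake and activation, -0.13 for mitochondrial and -0.11 for peroxisomal fatty acid oxidation, -0.080 for phospholipid synthesis, -0.061 for lysosome and autophagy, -0.17 for hypoxia-inducible genes and -0.028 for LXR targets. It was 0.18 for NF-kB and inflammatory genes, 0.15 for matrix and fibroblast markers, 0.26 for adipocyte markers, 0.26 for macrophage and endothelial markers and 0.15 for metallothioneins and zinc transport. The adipocyte list had 3 of 12 members with a mean of at least 6, and the macrophage and endothelial list 0 of 13.

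Opposite changes of at least 0.3 in the 2 siRNAs were seen in 3 of the genes named from the lists, again untested. Fbp2, the muscle fructose bisphosphatase, stood at -0.32 with scrambled siRNA and 0.75 with Plin2 siRNA, a difference of -1.07. Sln, the sarcolipin that inhibits the calcium pump, stood at 0.72 and -0.33, a difference of 1.05, and Alpl, alkaline phosphatase, at 0.31 and -0.54, a difference of 0.85. Fbp2 went from 4.64 to 4.31 and from 4.48 to 5.23, Sln from 4.24 to 4.96 and from 4.54 to 4.21, and Alpl from 4.92 to 5.23 and from 5.50 to 4.96, all at low signal.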

How the results depend on the processing

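The 2 arrays of each treatment are paired by siRNA, which is a term of the fit. With 1 array per condition there were no replicate numbers to add as a further block. The count of 2 for palmitate against BSA was 119 on the 4 BSA and palmitate arrays alone and 0 with all probe sets, where the adjusted p of Angptl4 and Cpt1a was 0.15 and 1782 of 35556 probe sets had an unadjusted p under 0.05. It was 2 without the trend, with 1 probe set per gene, without the lowest 33.3%, after centring and after quantile normalization. Leaving out 1 array gave 2 to 117; the values near 117 are in effect the 4-array fit. The count of 57 against oleate (alternatives for it were chosen after seeing the data) was 0 without the trend and 0 with all probe sets (1686 and 2464 at an unadjusted p under 0.05), 30 after centring and 36 after quantile normalization, and 30 to 538 without 1 array. The 18 genes changed by at least 0.5 in both pairs became 220 at 0.3 and 10 without the lowest 33.3% of genes, and 17 to 20 under the scalings and the mean of probe sets. Over all genes opposite changes of at least 0.3 were as frequent. They were 182 genes higher with scrambled and lower with Plin2 siRNA and 40 the reverse. Where the mean was at least 6, the counts at 0.3 were 32 higher and 40 lower in both pairs. Opposite counts there were 16 and 11. Of 447 values of single genes under an alternative, 0 reversed, 2 lost the call, 78 gained one and 367 stayed on their side of the threshold. Of 259 list medians, 49 moved by more than the SD of the 2 pair medians. Leaving out an array gives the median of the other pair, so this count is not a measure of stability. The myosin heavy chain median of -0.19 became -0.06 or -0.36 when 1 array was left out, and counted as unmoved. No scaling moved the median of all genes by over 0.01. With 1 array per condition the precision is set by the number of arrays. Signals below 6 were taken as low, although 10462 of 19938 genes had a mean under 6.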

Other observations

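Zinc and clock genes were not described above. Among 11 metallothionein and zinc transport genes, Mt1 went from 11.36 to 11.65 with scrambled siRNA and stood at -0.03 with Plin2 siRNA, and Mt2 from 12.06 to 12.39 and from 12.45 to 12.47. The importer Slc39a10 was higher in both, from 7.74 to 8.01 and from 7.42 to 7.73. None passed. Of 17 circadian clock genes 4 were higher and 5 lower in both pairs, 0 had an unadjusted p under 0.05, and the median was -0.04. The core activator Arntl stood at -0.07 (SE 0.10) and the repressor Nr1d1 at 0.11 (SE 0.10). Bhlhe40, a repressor of the same loop, stood at 0.13 against BSA and differed from oleate by 0.56 (SE 0.10, limma adjusted p = 0.048).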
